A study of Mus musculus with 12 samples.

Results

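The genes that encode the proteasome, its regulators and its assembly factors were followed in mouse heart RNA. Members were the genes whose symbol is Psma, Psmb, Psmc, Psmd, Psme, Psmf or Psmg followed by a number. Of 54 symbols that start this way, 4 pseudogenes and 2 symbols with letters after the number (Psmc3ip and Psme2b) were left out. Psmb11, the thymus-specific catalytic subunit, averaged 0.083 counts a library and lay under the minimum mean of 10 counts. That left 47 members of 49315 genes, and all 47 passed the filter on low counts. The 3 immunoproteasome subunits Psmb8, Psmb9 and Psmb10 are described apart from the other 44 genes, which are called the main set here.

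Hearts came from wild-type C57BL/6J females aged 27 to 29 weeks. Western diet postpartum hearts (3 libraries) were from dams fed 45% of energy as fat and 17% as sucrose for 15 weeks and then bred, and were taken on day 1 after delivery. Control diet postpartum hearts (3 libraries) were from dams bred after 15 weeks on a diet with 10% of energy as fat. Western diet nonpregnant and control diet nonpregnant hearts (3 libraries each) were from unbred females kept on the same diets to the same age. The series asks how metabolic syndrome, the cluster of obesity, high glucose and related disorders that the diet models, bears on cardiac remodelling in pregnancy. Each library is whole heart tissue. Separate animals are not named as the source of the libraries, so p-values measure the spread between these libraries, which may be technical. All postpartum titles carry lower numbers than the nonpregnant ones, so pregnancy and that order cannot be told apart.

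The 26S proteasome degrades proteins tagged with ubiquitin. Its 20S core is a barrel of alpha rings (Psma genes), which gate entry, and beta rings (Psmb genes), where Psmb5, Psmb6 and Psmb7 carry the catalytic sites. The 19S cap unfolds substrates with an ATPase ring (Psmc genes) and binds and deubiquitinates them with non-ATPase subunits (most Psmd genes). Interferon gamma induces Psmb8, Psmb9 and Psmb10, which take the places of Psmb5, Psmb6 and Psmb7 and form the immunoproteasome. Psme genes encode alternative activators, Psmf1 an inhibitor, and Psmg1 to Psmg4 with Psmd5, Psmd9 and Psmd10 assembly chaperones. In muscle, the system turns over contractile proteins and rises in several forms of atrophy.

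The 250 bases before the start of 4 genes are shown because the results turn on them. Psma7 is the gene that passed the test. Psmb8 and Psmb9 vary most between libraries, and Psmb5 is the constitutive counterpart of Psmb8. The sequences are from RefSeq, build GRCm38.p6, written 5′ to 3′ on the gene's own strand. Capitals mark matches to a CCAAT box (CCAAT, or ATTGG on the other strand) in Psma7 and Psmb9. In Psmb8 they mark a gamma-activated site (TTCNNNGAA), a motif of interferon gamma response. In Psmb5 they mark an antioxidant response element (TGACNNNGC), which NFE2L1 and NFE2L2 bind.
Psma7, chr2:180042465-180042714, minus strand: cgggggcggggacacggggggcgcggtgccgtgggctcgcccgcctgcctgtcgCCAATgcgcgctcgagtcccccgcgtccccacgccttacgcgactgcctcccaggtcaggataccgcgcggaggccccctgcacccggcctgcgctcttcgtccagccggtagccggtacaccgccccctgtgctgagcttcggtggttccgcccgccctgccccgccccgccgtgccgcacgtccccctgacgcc
Psmb5, chr14:54617996-54618245, minus strand: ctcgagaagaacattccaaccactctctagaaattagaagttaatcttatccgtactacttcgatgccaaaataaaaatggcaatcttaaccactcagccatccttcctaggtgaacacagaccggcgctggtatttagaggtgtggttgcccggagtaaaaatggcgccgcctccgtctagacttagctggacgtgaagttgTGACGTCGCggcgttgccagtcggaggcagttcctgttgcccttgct
Psmb8, chr17:34197945-34198194, plus strand: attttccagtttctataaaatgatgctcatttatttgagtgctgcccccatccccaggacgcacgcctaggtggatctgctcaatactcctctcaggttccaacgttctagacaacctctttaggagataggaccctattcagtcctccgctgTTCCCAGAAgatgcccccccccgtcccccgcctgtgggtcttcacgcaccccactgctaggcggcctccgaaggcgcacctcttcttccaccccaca
Psmb9, chr17:34187331-34187580, minus strand: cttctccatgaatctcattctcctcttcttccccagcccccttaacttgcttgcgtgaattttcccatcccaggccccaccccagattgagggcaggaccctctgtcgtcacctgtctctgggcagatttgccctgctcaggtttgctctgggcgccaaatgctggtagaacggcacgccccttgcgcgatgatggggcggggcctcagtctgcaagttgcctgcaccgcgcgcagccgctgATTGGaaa
For Psmb8 and Psmb9 the window lies inside the longer gene span given with the deposited counts, since RefSeq starts these genes further in. Psmb8 and Psmb9 lie near each other in the major histocompatibility complex, and Psmb9 shares 5.79% of its exon bases with Tap1, the peptide transporter gene.

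A promoter was matched for 39 of 47 members. Both strands of the 250 bases were searched, and the 36 main-set genes with a match had 39 promoters. The antioxidant response element was in 12.8% of these promoters and in 10.2% of all 32851 promoters. The CCAAT box was in 30.8% of them and in 33.9% of all. The core of the interferon-stimulated response element (GAAANNGAA) was in 7.69% and in 7.13% of all, and the gamma-activated site was in 2.56% and in 7.02% of all. No test was made of these shares, and a match describes letters only. The antioxidant response element was matched before Psmb5, Psmb6, Psmc6, Psmd9 and Psmd12.

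CPM values are read counts divided by the scaled library size. Proteasome genes were expressed in every library at steady levels. Over the 12 libraries, the coefficient of variation (SD over mean) had a median of 5.43% in the main set, and 40 of the 44 genes lay under 10%. The range was 2.30% for Psmc6 to 26.0% for Psma8. The median over all 15476 genes tested was 11.5%. Spread depends on level, and most proteasome genes are well expressed. The 3 immunoproteasome genes varied more, by 10.9% to 31.3%. Summed over the main set, CPM ran from 3405 to 3772, a 1.11-fold range.

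**Figure D1:**
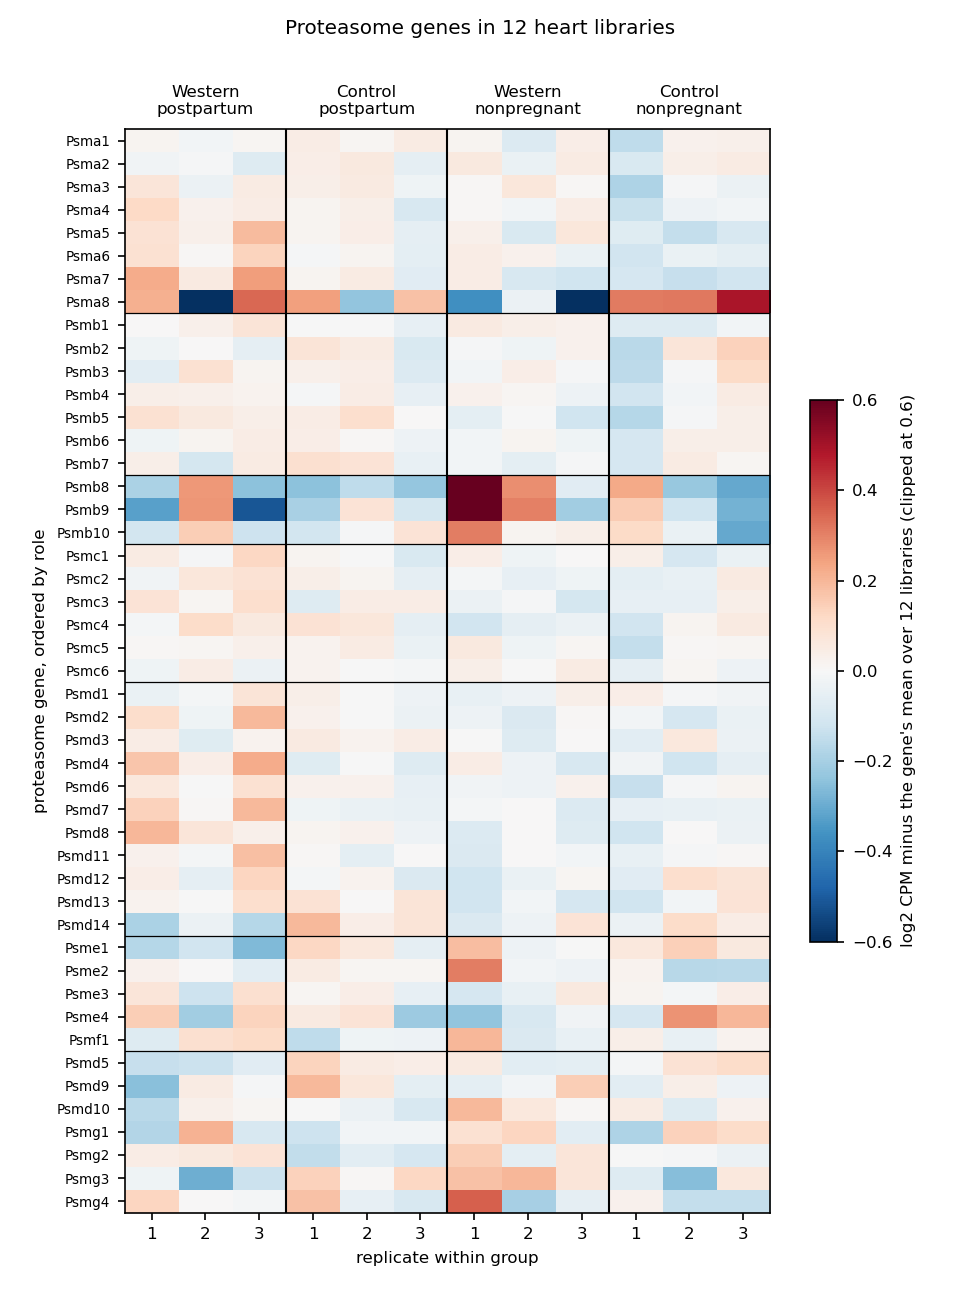
Each row is 1 of the 47 genes, ordered by role from top to bottom (alpha ring, beta ring, immunoproteasome, 19S ATPases, 19S non-ATPases, activators and inhibitor, chaperones), and each column is 1 library. Colour is log2 CPM minus the gene's mean over the 12 libraries, clipped at 0.6. Most rows are pale, Psmb8 and Psmb9 are darkest in Western diet nonpregnant replicate 1, and Psma8, at under 1.1 CPM in every library, varies most of the main set.

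Single libraries recurred as the extremes. Control diet nonpregnant replicate 1 was the lowest library for 10 of 14 20S genes (Psma8 left out), for 7 of 17 19S genes and for 18 of the 44 main-set genes. Western diet postpartum replicate 3 was the highest for 5 of the 14, 11 of the 17 and 17 of the 44. The share of all genes tested with their lowest or highest value in these libraries was not counted.

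Between genes, levels were compared per length, as CPM per kb of the deposited summed exon length. In the alpha ring Psma6 (81.5), Psma2 (80.5) and Psma4 (36.6) were highest. Psma8, a testis subunit, was lowest at 0.475, followed by Psma3 (19.8) and Psma7 (29.4). In the beta ring Psmb1 (98.7), Psmb5 (96.95) and Psmb4 (62.7) led, and Psmb3 (29.5), Psmb7 (35.7) and Psmb2 (54.2) were lowest. The order depends on the length used. With the length of the principal GENCODE M21 transcript, a choice made after seeing the data, Psmb6 led all members at 131 CPM per kb and Psma2 dropped to 26.1, rank 33 of 47. The order of the 20S genes was thus not stable between the lengths.

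In the 19S ATPase ring, Psmc1 (78.3), Psmc3 (76.3) and Psmc5 (68.3) were highest and Psmc2 (20.2), Psmc4 (28.5) and Psmc6 (51.9) lowest, in CPM per kb of summed exon length. Of the 19S non-ATPases, the scaffold Psmd2 (55.9), Psmd7 (44.9) and Psmd12 (35.2) led, and Psmd11 (11.2), the deubiquitinase Psmd14 (13.9) and Psmd1 (17.1) were lowest. Their order, too, changed with the length. By the principal transcript Psmd2 (76.2), Psmd4 (70.0) and Psmd7 (64.2) led, and Psmd13 (33.6) stood below Psmd1 (39.9). Among activators and the inhibitor, Psme1 (46.6), Psme4 (35.6) and Psme2 (23.3) led, and Psmf1 (2.82), Psme3 (20.1) and again Psme2 were lowest of these 5. Chaperones were low as a group, with Psmg2 (19.9), Psmg1 (12) and Psmg4 (11.2) highest and Psmg3 (1.68), Psmd9 (2.25) and Psmd5 (2.54) lowest. Psmb10 stood at 23.9, Psmb8 at 5.67 and Psmb9 at 2.61 CPM per kb. By either length, Psma8 was last. Every chaperone ranked below every other 20S gene of the main set by either length, except that Psmg2 stood just above Psma3 by the deposited one.

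**Figure D2:**
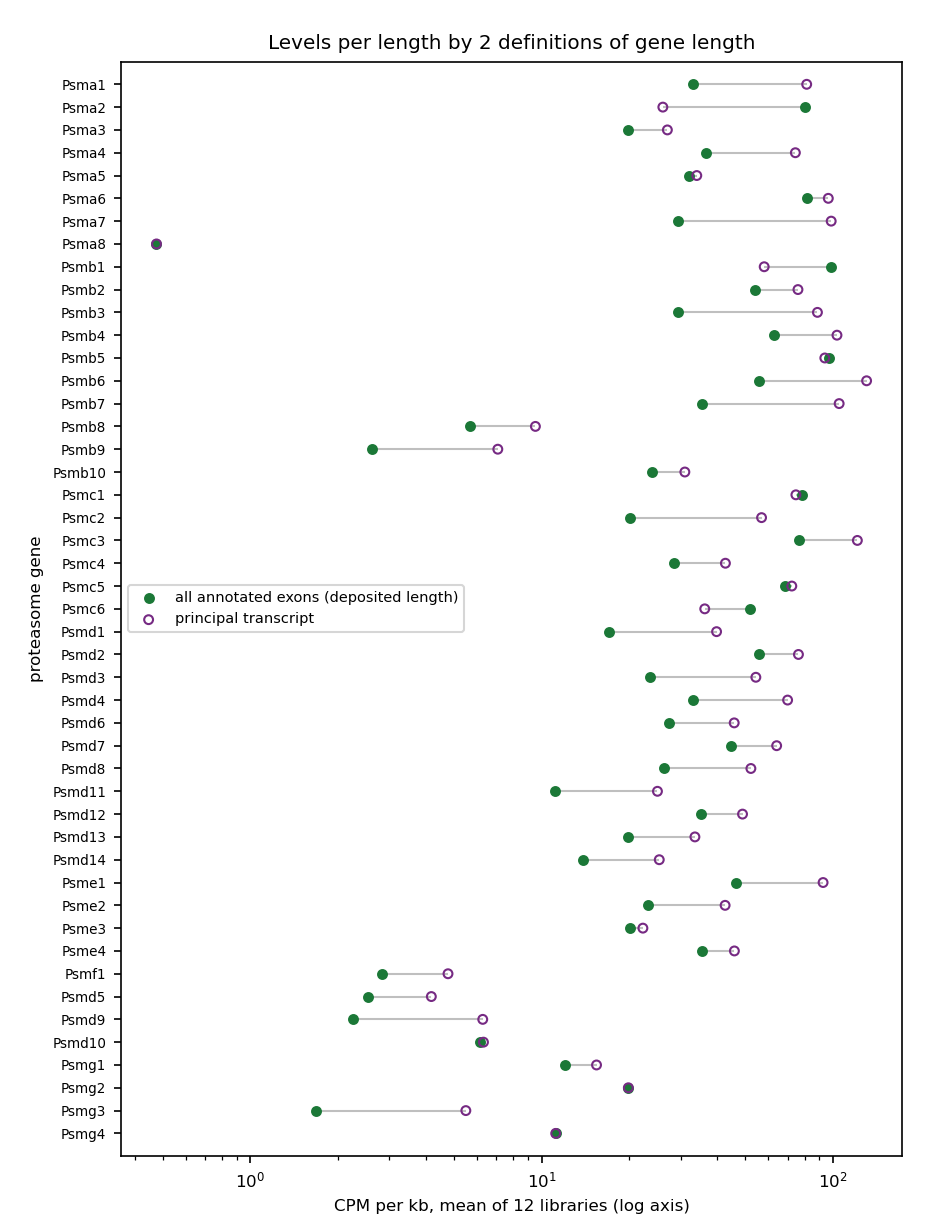
Mean CPM per kb over 12 libraries on a log axis, for each gene in order of role. Filled points use the deposited summed exon length and open points the principal transcript. The open point of Psma2 lies left of its filled point (26.1 against 80.5), while Psmb6 moves right (131 against 55.7).

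The first comparison was Western diet postpartum against control diet nonpregnant hearts, the pair that differs in both diet and pregnancy. Psma7, an alpha ring subunit, was the single member past the threshold, at 1.23-fold. It had 105, 93.4 and 107 CPM in Western diet postpartum hearts, against 83.7, 81.6 and 82.9 CPM in control diet nonpregnant hearts. The 3 Western diet postpartum libraries all lay above the 3 control diet nonpregnant ones. The log2 fold change was 0.30 ± 0.07 (SE, 95% interval 0.16 to 0.44, n = 3 each; edgeR quasi-likelihood test, adjusted p = 0.0308). In control diet postpartum hearts Psma7 had 90.9, 93.2 and 85.9 CPM, and in Western diet nonpregnant hearts 92.8, 84.2 and 82.8 CPM. These lay between the other groups with some overlap. One member of 44 is 2.27%, and 2.62% of all 15476 genes passed, so the main set's share was near the background.

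The Psma7 call depended on the libraries. Its log2 fold change stayed between 0.26 and 0.36 under every alternative run. The adjusted p was 0.0865 when only these groups were fitted. It was 0.128 without Western diet postpartum replicate 1, 0.107 without replicate 3, 0.107 without control diet nonpregnant replicate 2 and 0.0840 without replicate 3. It stayed past the threshold in the other alternatives, including DESeq2 (0.00222) and limma-voom (0.0348).

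Psme1, the alpha subunit of the 11S activator PA28, had the next smallest p and went the other way. It had 91.2, 94.9 and 85.3 CPM in Western diet postpartum hearts and 107, 113 and 107 CPM in control diet nonpregnant hearts, with no overlap. Its log2 fold change was -0.27 ± 0.07 (SE; edgeR adjusted p = 0.0596), past the threshold in DESeq2 (0.0198), with no filter on low counts (0.0110) and without Western diet postpartum replicate 2 (0.0422). Its partner Psme2 had 41.7, 41.1 and 39.2 CPM, against 41.6, 36.5 and 36.6 CPM, and the ranges overlapped (log2 fold change 0.09 ± 0.09).

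Psmd4, the 19S ubiquitin receptor, had 105, 95.5 and 108 CPM in Western diet postpartum hearts and 91.6, 85.6 and 89.5 CPM in control diet nonpregnant hearts (log2 fold change 0.21 ± 0.06, edgeR adjusted p = 0.0854). DESeq2 called it (0.0374), as did edgeR without Western diet postpartum replicate 2 (log2 fold change 0.26, adjusted p 0.0301), which also called the 19S subunit Psmd7 (0.21, 0.0405). Psma5, an alpha subunit, had 44.8, 43.1 and 48.1 CPM and 40.1, 38.2 and 39.4 CPM in the same order of groups (log2 fold change 0.21 ± 0.06, edgeR adjusted p = 0.0962). The groups did not overlap for Psmd4 or Psma5, and neither passed the edgeR threshold with all libraries. Without Western diet postpartum replicate 3 their log2 fold changes were 0.17 and 0.17 (edgeR adjusted p 0.240 and 0.275). The catalytic genes Psmb5, Psmb6 and Psmb7 had log2 fold changes of 0.11 ± 0.06, 0.02 ± 0.05 and 0.01 ± 0.06. Psme3 and Psme4 had 0.00 ± 0.07 and -0.10 ± 0.12.

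**Figure D3:**
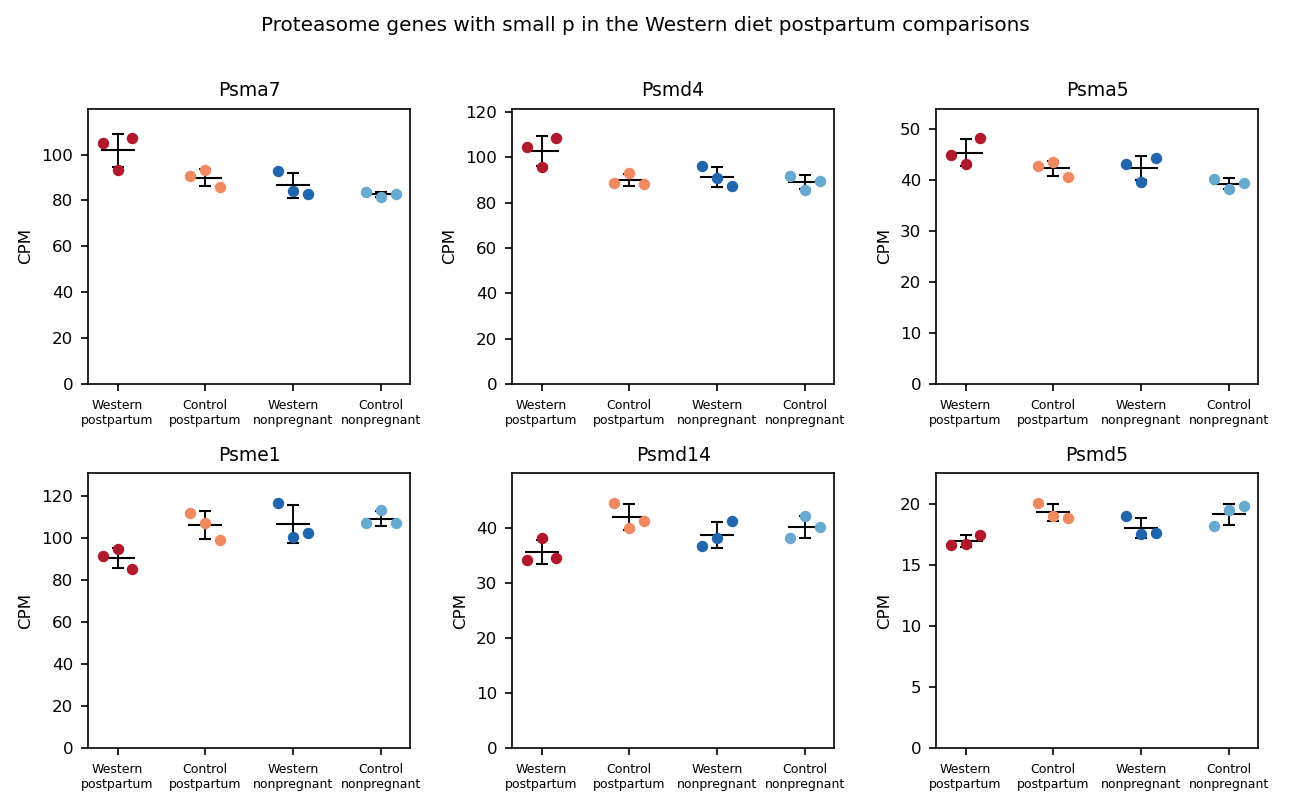
CPM of 6 proteasome genes by group, 3 libraries each; points are libraries, bars are the mean and SD. Psma7 and Psmd4 are higher and Psme1, Psmd14 and Psmd5 lower in Western diet postpartum hearts than in control diet postpartum hearts, where Psma7 means are 102 and 89.98 CPM; only the Psma7 difference from control diet nonpregnant hearts passed the test.

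The main set as a whole shifted little in this comparison. Its median log2 fold change was 0.05, and 33 of 44 were positive, beside a median of 0.00 and 49.6% positive in all genes. Without control diet nonpregnant replicate 1 the median was 0.02 with 27 of 44 positive, and without Western diet postpartum replicate 3 it was 0.04 with 29 positive. At an unadjusted p under 0.05 there were 8 genes higher and 3 lower, 25% of the 44 against 18.2% of all genes. Groups did not overlap for 12 of the 44 (27.3%), against 20.2% of all genes tested. For 43 of the 44 the 95% interval lay within a 1.5-fold change either way, which held for 65.4% of all genes. Psma8, with few counts, was the exception.

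By role, the higher values in Western diet postpartum hearts were spread over the alpha ring (median log2 fold change 0.11, 6 of 8 positive) and the 19S non-ATPases (0.08, 10 of 11 positive). The 19S ATPases were all 6 positive at a median of 0.06, and the beta ring had 6 of 7 positive at 0.03. Chaperones had 2 of 7 positive at -0.04. These counts depended on single libraries, which were left out as alternatives chosen after seeing the data. Without control diet nonpregnant replicate 1 the beta ring had 3 of 7 positive at a median of -0.02, the 19S ATPases 6 of 6 at 0.03, the 19S non-ATPases 8 of 11 at 0.05 and the alpha ring 5 of 8 at 0.07. Without Western diet postpartum replicate 3 the 19S non-ATPases had 7 of 11 positive at 0.03 and the beta ring 5 of 7 at 0.03. Summed CPM of the 19S non-ATPases was 1128, 1065 and 1170 in Western diet postpartum hearts and 1042, 1062 and 1068 in control diet nonpregnant hearts. The ranges overlapped, with 2 Western diet postpartum libraries above all 3 controls.

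Cell type markers were measured in the same libraries. The 10 cardiomyocyte markers summed to 95610 to 97260 CPM in Western diet postpartum hearts and to 98000 to 111500 CPM in control diet nonpregnant hearts, and none of the 10 was at 0. Phospholamban (Pln), the brake on calcium uptake, fell by 0.27 on the log2 scale (edgeR adjusted p = 0.0432), the single call among the 10 in that contrast. Of the 10 markers 0 were positive, with a median log2 fold change of -0.16, beside 49.6% positive in all genes. Of 6 fat markers tested, 2 were positive, with a median log2 fold change of -0.04. The 8 on the list summed to 29.7 to 32.2 CPM in Western diet postpartum hearts and to 18.5 to 27.3 CPM in control diet nonpregnant hearts. Most of that sum was Cidea, a lipid droplet gene, at 27.7 to 31.04 CPM and 16.3 to 25.7 CPM. The 16 leukocyte markers summed to 196.5 to 235.8 CPM in Western diet postpartum hearts and to 155.9 to 256.2 CPM in control diet nonpregnant hearts. In whole tissue, fewer cells of a type and less RNA per cell cannot be told apart, and the part of these differences in the proteasome values was not tested.

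**Figure D4:**
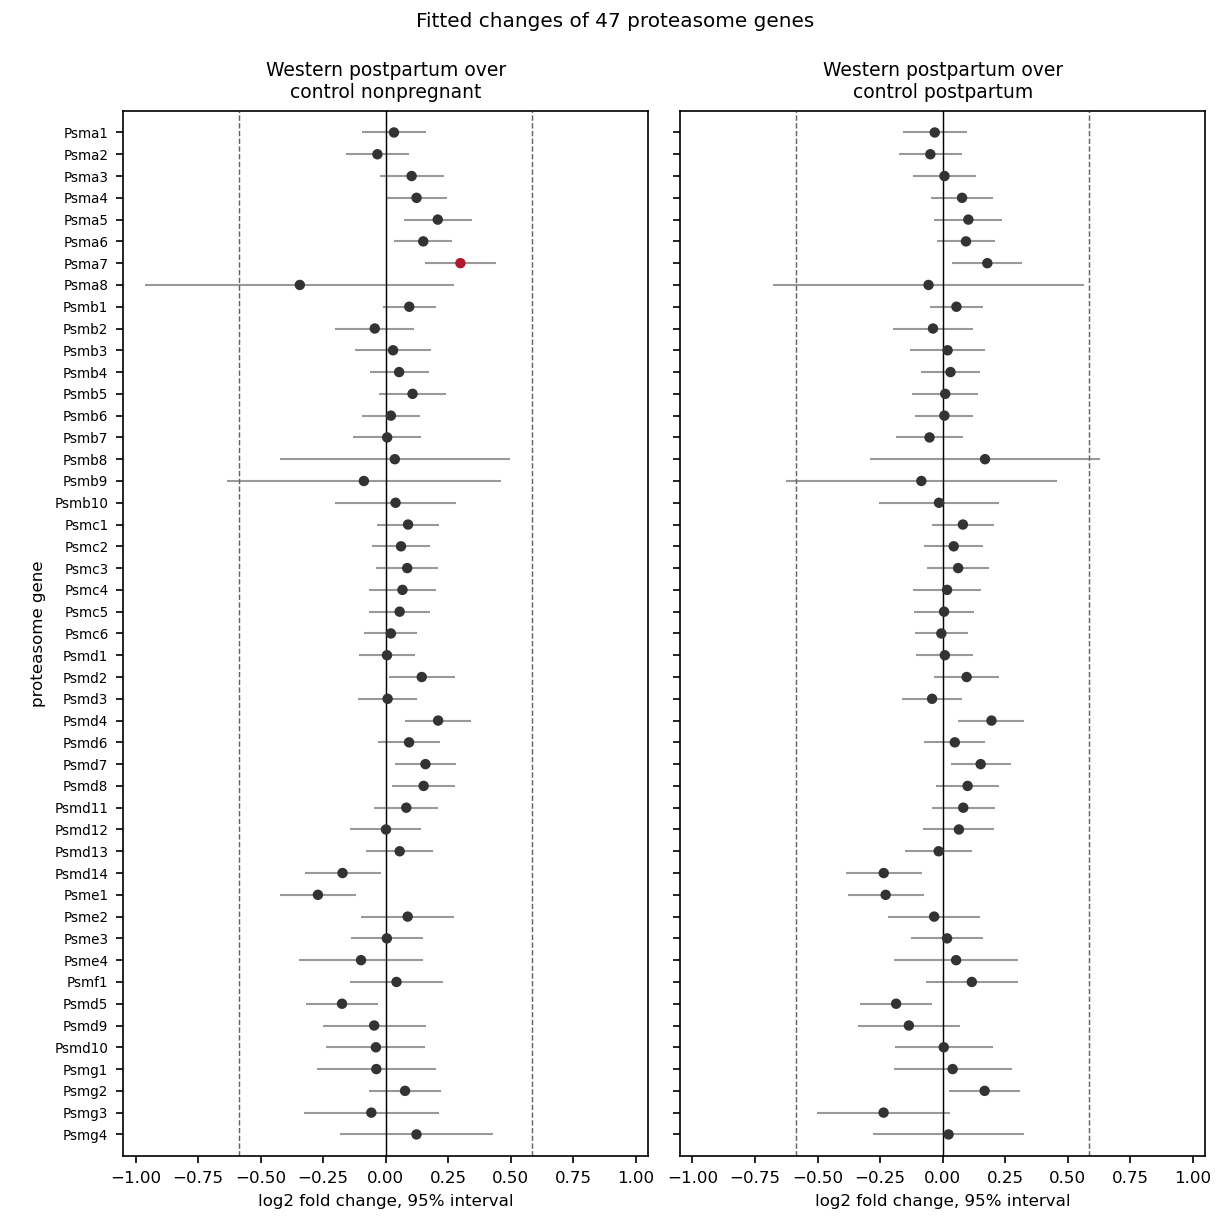
Fitted log2 fold changes with 95% intervals for all 47 genes, Western diet postpartum over control diet nonpregnant on the left and over control diet postpartum on the right. Red marks the gene past the threshold (Psma7, left), and dashed lines mark a 1.5-fold change. Intervals of all main-set genes but Psma8 stay within the dashed lines.

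The diet comparison within postpartum hearts asks what the Western diet does in pregnancy. No proteasome gene passed the threshold, while 0.879% of all genes did. The lowest adjusted p was for Psmd14, the 19S deubiquitinase, with 34.2, 38.0 and 34.6 CPM in Western diet postpartum hearts and 44.5, 40.0 and 41.1 CPM in control diet postpartum hearts. All 3 Western diet libraries lay below the 3 control diet ones. The log2 fold change was -0.24 ± 0.07 (SE; edgeR adjusted p = 0.128). Psme1 was -0.23 ± 0.07 (0.145), Psmd4 0.20 ± 0.06 (0.151) and the base chaperone Psmd5 -0.19 ± 0.07 (0.207). Psmd5 had 16.7, 16.8 and 17.5 CPM in Western diet postpartum hearts and 20.1, 19 and 18.8 CPM in control diet postpartum hearts. Psme1 had 112, 107 and 98.8 CPM in control diet postpartum hearts, all above its Western diet postpartum values, and Psma7 was at 0.18 ± 0.07 (0.215).

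In the same comparison Psmb5, Psmb6 and Psmb7 were at 0.01, 0.01 and -0.05 on the log2 scale, and Psme2, Psme3 and Psme4 at -0.03, 0.02 and 0.05. At an unadjusted p under 0.05, 4 of the main set were higher and 3 lower, 15.9% of the 44 against 14.6% of all genes. DESeq2 and limma-voom each called 0, and edgeR with no filter on low counts called 1, Psme1 (adjusted p 0.0458). Groups did not overlap for 10 of 44 (22.7%), against 19.1% of all genes. The median was 0.02 with 30 of 44 positive, and without control diet postpartum replicate 3 it was -0.01 with 19 positive. Leukocyte markers summed to 196.5 to 235.8 CPM in Western diet postpartum hearts and to 214.8 to 245.9 CPM in control diet postpartum hearts. In control diet postpartum replicate 3 the fat markers summed to 237 CPM, against 18.5 to 32.2 CPM in all other libraries. Its part was not tested.

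The diet was also compared in nonpregnant hearts. No member passed, beside 0.0582% of all genes. The lowest p was for Psma8, at 0.601, 0.757 and 0.458 CPM in Western diet nonpregnant hearts and 0.964, 0.967 and 1.09 CPM in control diet nonpregnant hearts. The groups did not overlap, but the gene averaged 20.7 counts a library, and the log2 fold change of -0.73 ± 0.29 had an edgeR adjusted p of 0.461. Psme2 (0.19 ± 0.09, adjusted p 0.509) and Psme4 (-0.25 ± 0.12, adjusted p 0.524) came after Psmb8. Psme2 had 50.7, 40.4 and 40.1 CPM in Western diet nonpregnant hearts, against 41.6, 36.5 and 36.6 CPM in control diet nonpregnant hearts, and without Western diet nonpregnant replicate 1 its log2 fold change was 0.08. The catalytic genes Psmb5, Psmb6 and Psmb7 were at -0.01, 0.00 and -0.02, Psme1 at -0.03 and Psme3 at -0.04. The main set had 1 gene higher and 1 lower at an unadjusted p under 0.05, 4.55% of the 44 against 9.58% of all genes, and DESeq2 and limma-voom called 0. Groups did not overlap for 5 of 44 (11.4%), against 14.8% of all genes. The main set's median log2 fold change was 0.02 with 26 of 44 positive, and without control diet nonpregnant replicate 1 it was -0.01.

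Pregnancy was compared on each diet. On the Western diet no member passed (0.588% of all genes did). Psma7 was at 0.23 ± 0.07 (edgeR adjusted p = 0.125), Psme1 at -0.24 ± 0.07 (0.149), Psmd4 at 0.17 ± 0.06 (0.218) and the 19S subunit Psmd8 at 0.16 ± 0.06 (0.241), all as log2 fold changes of postpartum over nonpregnant. DESeq2 called Psma7 (0.0443), as did edgeR without Western diet postpartum replicate 2 (0.0290), and limma-voom called 0. At an unadjusted p under 0.05 the main set had 4 higher and 2 lower, 13.6% of the 44 against 14.7% of all genes. Groups did not overlap for 10 of 44 (22.7%), against 19.6% of all genes. The main set's median log2 fold change was 0.02 with 31 of 44 positive, beside 49.3% positive in all genes. Without Western diet postpartum replicate 3 the median was 0.01. Psmb5, Psmb6 and Psmb7 were at 0.12, 0.02 and 0.02, and Psme2, Psme3 and Psme4 at -0.10, 0.05 and 0.15. Without Western diet nonpregnant replicate 1 Psme2 was at 0.01.

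On the control diet, too, no member passed, beside 0.239% of all genes. No member had an unadjusted p under 0.05, against 12.5% of all genes. DESeq2 and limma-voom called 0. Psma7 had the smallest p, at 0.12 ± 0.07 (edgeR adjusted p = 0.485), followed by Psma5 (0.11), Psma3 (0.10) and Psmb5 (0.10). Psmb6 and Psmb7 were at 0.01 and 0.06, and Psme1 to Psme4 at -0.04, 0.12, -0.01 and -0.15. Groups did not overlap for 4 of 44 (9.09%), against 17.1% of all genes. The main set's median log2 fold change was 0.03 with 32 of 44 positive, beside 48.2% positive in all genes. Without control diet nonpregnant replicate 1 the median was 0.02. Of 12 tested leukocyte markers, 3 rose in this comparison: the macrophage gene Cd68 (0.80, edgeR adjusted p = 0.0340) and the complement genes C1qa (0.52, 0.0364) and C1qb (0.48, 0.0370). C1qb also rose in Western diet postpartum over control diet nonpregnant hearts (0.38, 0.0342), and Cd68, C1qa and C1qb all rose in postpartum hearts averaged over diet (0.54, 0.32 and 0.29, edgeR adjusted p 0.0182, 0.0260 and 0.0312). In that average the ventricular myosin light chain Myl2 fell by 0.24 on the log2 scale (0.0350). Their part in the proteasome values was not tested.

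Averaged over diet, postpartum hearts had no member past the threshold, beside 1.78% of all genes, although Psma7 came close at 0.18 ± 0.05 (edgeR adjusted p = 0.0693). DESeq2 called Psma7 (0.0170) and limma-voom called 0. The main set had 4 genes higher and 1 lower at an unadjusted p under 0.05, 11.4% of the 44 against 17.6% of all genes. Its median log2 fold change was 0.03 with 31 of 44 positive, beside 49.6% positive in all genes. Psme1 was at -0.14 ± 0.05 (0.163), Psmd8 at 0.10 ± 0.04 (0.215) and Psmb5 at 0.11 ± 0.04 (0.216). Psmb6 and Psmb7 were at 0.02 and 0.04, and Psme2, Psme3 and Psme4 at 0.01, 0.02 and 0.00.

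Averaged over pregnancy, the Western diet had no member past the threshold, beside 1.38% of all genes. Psmd14 was at -0.14 ± 0.05 (0.190), Psmd5 at -0.14 ± 0.05 (0.193), Psmd4 at 0.12 ± 0.04 (0.229), Psma7 at 0.12 ± 0.05 (0.240) and Psme1 at -0.13 ± 0.05 (0.240). Psmb5, Psmb6 and Psmb7 were at 0.00, 0.00 and -0.03, and Psme2, Psme3 and Psme4 at 0.08, -0.01 and -0.10. Here 6 were higher and 3 lower at an unadjusted p under 0.05, 20.5% of the 44 against 14.3% of all genes, and DESeq2 and limma-voom called 0. The main set's median log2 fold change was 0.02 with 26 of 44 positive.

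Whether the pregnancy effect differed by diet was tested with the interaction. It passed for 0.0% of all genes tested in edgeR, which had 792 genes positive and 598 negative at an unadjusted p under 0.05. DESeq2 called 43 genes and limma-voom 0, none of them proteasome members. In the main set 1 gene had an unadjusted p under 0.05, the alpha ring chaperone Psmg3. That is 2.27% of the 44, against 8.98% of all genes. Psme1 (-0.19 ± 0.10), Psme2 (-0.23 ± 0.12), Psmd14 (-0.18 ± 0.10) and Psme4 (0.30 ± 0.16) came next, with edgeR adjusted p from 0.584 to 0.597. Without Western diet nonpregnant replicate 1 the Psme2 value was -0.11. Psmb5, Psmb6, Psmb7 and Psme3 were at 0.02, 0.01, -0.04 and 0.06. Intervals lay within 1.5-fold for 41 of 44 (93.2%), against 54.9% of all genes.

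The 3 immunoproteasome genes passed in none of the 8 comparisons as fitted with edgeR, although Psmb8 and Psmb9 passed in several when no filter on low counts was used, and their groups overlapped in all 5 that compare single groups. Their levels depended on single libraries. Psmb8, which replaces Psmb5, had 13.2, 17.99 and 12.7 CPM in Western diet postpartum hearts and 12.7, 13.5 and 12.8 CPM in control diet postpartum hearts. It had 28.0, 18.3 and 14.3 CPM in Western diet nonpregnant hearts and 17.6, 12.8 and 12.2 CPM in control diet nonpregnant hearts. Western diet nonpregnant replicate 1 was the highest library for all 3 genes.

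Psmb9, which replaces Psmb6, had 7.35, 11.1 and 6.47 CPM in Western diet postpartum hearts and 8.07, 9.77 and 8.57 CPM in control diet postpartum hearts. It had 17.8, 11.4 and 7.99 CPM in Western diet nonpregnant hearts and 10.2, 8.49 and 7.58 CPM in control diet nonpregnant hearts. Psmb10, which replaces Psmb7, spread less. It had 37.5, 44.8 and 37.2 CPM in Western diet postpartum hearts, 37.5, 40.2 and 42.9 CPM in control diet postpartum hearts, 50.03, 40.98 and 41.4 CPM in Western diet nonpregnant hearts and 43.9, 39.4 and 32.7 CPM in control diet nonpregnant hearts.

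On the Western diet, postpartum over nonpregnant was -0.46 ± 0.21 for Psmb8 (edgeR adjusted p = 0.327), -0.57 ± 0.25 for Psmb9 (0.310) and -0.15 ± 0.11 for Psmb10 (0.576) on the log2 scale. Without Western diet nonpregnant replicate 1 the Psmb8, Psmb9 and Psmb10 values were -0.16, -0.22 and -0.05. In nonpregnant hearts, Western over control diet was 0.50 ± 0.21 for Psmb8 (0.484), 0.48 ± 0.25 for Psmb9 (0.561) and 0.19 ± 0.11 for Psmb10 (0.644). Without that library, Psmb8, Psmb9 and Psmb10 were at 0.20, 0.14 and 0.09. In both comparisons the log2 values of all 3 genes were thus smaller in size with this 1 library left out. In the other 3 comparisons of single groups the 3 genes lay between -0.13 and 0.17. Without Western diet postpartum replicate 2, Psmb9 was at -0.35 both in Western diet postpartum over control diet postpartum hearts and over control diet nonpregnant hearts. Without control diet nonpregnant replicate 1, Psmb8 was at 0.06 for pregnancy on the control diet. Averaged over diet, postpartum over nonpregnant was -0.30, -0.29 and -0.05 for Psmb8, Psmb9 and Psmb10 (edgeR adjusted p 0.325, 0.430 and 0.801). Averaged over pregnancy, Western over control diet was 0.33, 0.20 and 0.09 (0.331, 0.670 and 0.681). The interaction was -0.33 ± 0.30, -0.57 ± 0.35 and -0.20 ± 0.16, and without Western diet nonpregnant replicate 1 it was -0.03, -0.23 and -0.11.

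The share of Psmb8 in the summed CPM of Psmb8 and Psmb5, not scaled for length, was 12.4% to 25.7% over the libraries. It was 5.67% to 14.7% for Psmb9 with Psmb6 and 21.03% to 29.3% for Psmb10 with Psmb7. The highest share of each pair was in Western diet nonpregnant replicate 1, where the constitutive genes were at 81.0 (Psmb5), 103 (Psmb6) and 121 (Psmb7) CPM, within the range of the other libraries. Of the 14 genes of class I presentation and its inducers, 12 had their highest value in that library. The others were the peptidase gene Erap1, at 34.6 CPM there and at most 36.6 CPM elsewhere, and Ifng, at 0 there and at most 0.131 CPM elsewhere. The 14 genes summed to 1548 CPM there, against 659.8 to 1003 CPM in the other 11 libraries. The 16 leukocyte markers summed to 352 CPM, against 155.9 to 258.6 CPM. The class II chaperone gene Cd74 was 181.9 CPM of that sum, against 32.9 to 95.4 CPM elsewhere, and the other 15 summed to 170.2 CPM there and to 123 to 194.2 CPM over all libraries. Cd68, Adgre1, C1qa and C1qb were not highest in that library. The part of these genes in the Psmb8 and Psmb9 values was not tested. How many of all genes tested were highest in that library was not counted.

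**Figure D5:**
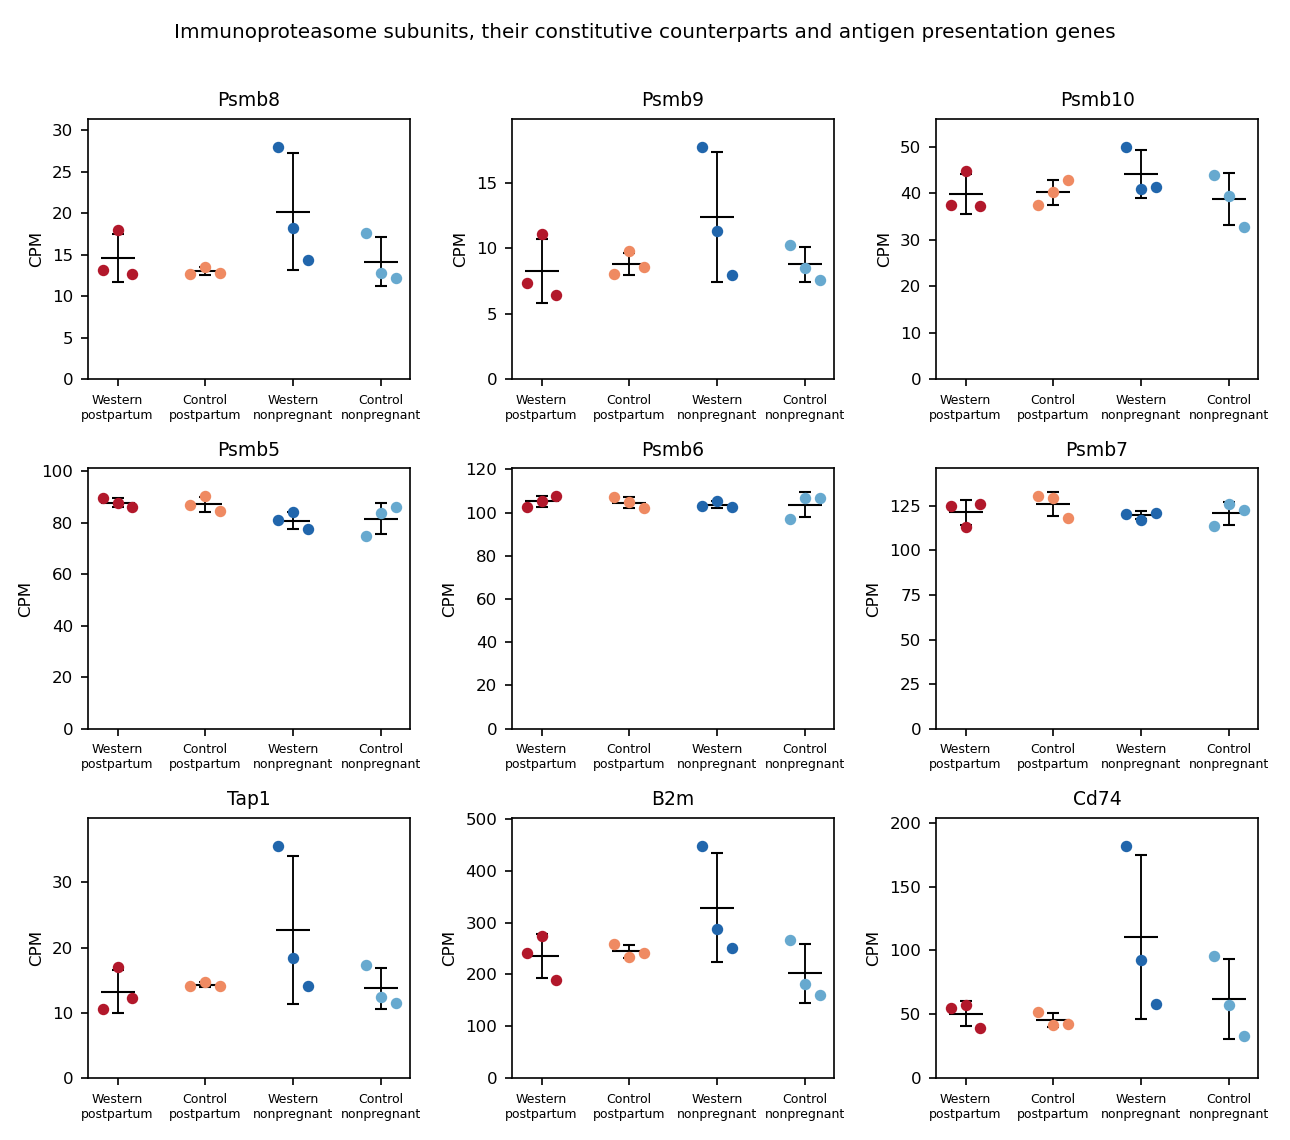
CPM by group for Psmb8, Psmb9 and Psmb10 (top), the constitutive genes they replace (middle) and Tap1, B2m and Cd74 (bottom); points are libraries, bars are the mean and SD of 3. Replicate 1 of the Western diet nonpregnant group (first point) is highest in the top and bottom rows (Psmb8 28.0 CPM) and not in the middle row (Psmb5 81.0 CPM).

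Other genes of the pathway mostly gave no call. The 9 proteasome-associated genes with other names, the 8 regulators of proteasome genes, the 19 ubiquitin and delivery genes and the 13 muscle ubiquitin ligases had 0 calls in either direction in all 8 comparisons. The same held for the 12 class I genes tested. Of all genes tested, 0.0% to 2.62% passed in these 8 comparisons, so 0 calls in lists this short is near the background. Nfe2l1, the transcription factor that raises proteasome genes when activity is short, was at 0.26 ± 0.06 in Western over control diet postpartum hearts (edgeR adjusted p = 0.0590) and at 0.18 ± 0.04 for the averaged diet effect (0.0527). Its relative Nfe2l2 was at 0.02 ± 0.08 in the first of these (0.931).

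Of 17 autophagy and lysosome genes, 1 passed. Gabarapl1, an autophagosome gene that FoxO factors induce in muscle, rose in Western over control diet postpartum hearts by 0.57 ± 0.09 on the log2 scale (edgeR adjusted p = 0.00775). It also rose in Western diet postpartum over control diet nonpregnant hearts (0.40, 0.0294) and in the averaged diet effect (0.33, 0.0178). Its interaction was 0.47 ± 0.12 (0.359).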

How the data were processed

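The authors deposited raw counts of reads for each gene of 12 heart libraries, with no normalization. Per the submitters' processing notes, reads were checked with FastQC, and STAR (2.5.2b) and Subread's featureCounts (1.5.2) were used with GRCm38 (mm10), with RNA from the RNeasy kit and NEBNext Ultra libraries per the labels' protocols. Neither the strand setting nor the annotation's release is stated, so overlapping genes may share counts. Psmd9 shares 25.5% of its exon bases with Gm26745, Psmb5 12.5% with Mir686 and Psmb7 11.8% with Nek6. Psmd13 shares 10.1% with Sirt3 and Psmg3 9.68% with Gm26938. The other members share less, with Psmc3 next at 8.25% (Slc39a13). Totals were 22754591 to 29492416 counts, and a count of 0 allows up to 0.102 to 0.132 CPM (3 counts of the total; without molecular identifiers this covers counting error alone).

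Groups follow the sample titles. edgeR 4.0.16 (R 4.3.3) kept 15476 genes with filterByExpr on the groups (at least 10 counts and 15 in total), scaled libraries by TMM, and fitted 1 quasi-likelihood model with 4 group means (common biological coefficient of variation 9.62%). Each of 8 contrasts was tested two-sided, and p-values were adjusted by Benjamini-Hochberg across all genes tested (threshold 0.05). Standard errors were the absolute log2 fold change divided by the root of F. Contrasts share libraries and are not independent. Data were also simulated, with changed genes drawn at random from the 15476 genes rather than from the members. Tested on simulated data for postpartum against nonpregnant hearts on the Western diet (15335 genes), the procedure recovered 2 of the 50 genes set to a 1.2-fold change. It recovered 27 of those set to 1.5-fold, 34 of those set to 2-fold and 48 of those set to 4-fold, 50 genes each, with 5 calls among 15276 unchanged genes. The 15276 unchanged genes and the 50 genes of each fold were counted before the filter on low counts. The 15335 genes tested were those that passed it, so some of the counted genes were not tested.

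The members and gene lists were chosen with earlier results of these data known. Named in each comparison were members past the threshold (where fewer than 4 passed, the 4 with the smallest p), Psmb5, Psmb6, Psmb7, Psmb8, Psmb9, Psmb10 and Psme1 to Psme4, the 3 highest and lowest members per length of each role, and list genes past the threshold (at most 6 a list). Psmd7, Nfe2l1, Nfe2l2, Tap1, B2m, Cd74, Cidea, Erap1 and Ifng were picked after their values were seen. Alternatives were other scalings and filters, edgeR's robust option, fits of the compared groups, DESeq2 1.42.0, limma-voom (limma 3.58.1), libraries left out and other member rules.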

Additional observations from a re-analysis of the deposited data

Results flagged for a closer look

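Psmg3, a chaperone of alpha ring assembly, lay on opposite sides of its control diet values in postpartum and in nonpregnant Western diet hearts. It had 4.74, 3.94 and 4.41 CPM in Western diet postpartum hearts, all below the 5.31, 4.85 and 5.26 CPM in control diet postpartum hearts. It had 5.45, 5.53 and 5.07 CPM in Western diet nonpregnant hearts, all above the 4.57, 4.03 and 5.04 CPM in control diet nonpregnant hearts. Neither diet comparison passed for Psmg3 (log2 fold change -0.24, edgeR adjusted p = 0.408, in postpartum and 0.23, adjusted p = 0.572, in nonpregnant hearts), and groups did not overlap for 19.1% and 14.8% of all genes in them. The difference itself was tested as the interaction, with a log2 value of -0.47 ± 0.17 (SE; edgeR unadjusted p = 0.0172, adjusted p = 0.466), so it did not pass over all genes. Psmg3 is among the lowest members, at 125 counts a library on average.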

How the results depend on the processing

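Counts of called main-set genes changed with the tool, the filter and single libraries. For Western diet postpartum over control diet nonpregnant hearts, 1 gene was called, against 2 with no filter on low counts, 3 with DESeq2, 0 with only the groups compared, and 0 to 4 with 1 library left out. Its median log2 fold change was 0.05, against 0.0156 with both replicate 3 of control diet postpartum and replicate 1 of control diet nonpregnant hearts left out, and 0.0191 (without control diet nonpregnant replicate 1) to 0.0750 with 1 library left out. For postpartum over nonpregnant on the Western diet and for pregnancy averaged over diet, 0 were called, against 1 with no filter, 1 with DESeq2 and 0 to 1 with 1 library left out. For Western over control diet in postpartum hearts, 0 were called, against 1 with no filter. The cause was not tested. With no filter on low counts, 29761 genes were fitted, and Psmb8 and Psmb9 passed for postpartum over nonpregnant on the Western diet (adjusted p 0.000443 and 0.000298), for Western over control diet in nonpregnant hearts (0.000260 and 0.00914) and for pregnancy averaged over diet (0.00256 and 0.0316), as did Psmb8 for the averaged diet effect (0.000660). Over 1691 alternative values of named genes, 1548 kept direction and side of the threshold, 119 changed sign with neither value past it, 19 gained and 5 lost the call, and 0 reversed a called value. The interaction called 506 genes with no filter, 53 without Western diet postpartum replicate 2 and 0 in edgeR as fitted. With 3 libraries a group, changes near 1.2-fold were seldom recovered in simulation, among genes drawn from all those tested. The main set varied less than all genes (median coefficient of variation 5.43% against 11.5%). Recovery at its levels and spread was not simulated. A missed threshold does not show that a gene did not change. No paired analysis was possible because the groups share no replicate numbers in the labels.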
